A study of Mus musculus with 72 samples.

Results

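The clustered protocadherin genes were followed through ChIP-seq peak lists of mouse cells with and without the nucleosome-binding proteins HMGN1 and HMGN2. The members are the 25 gene records of GENCODE vM1 (genome build mm9) whose symbols begin with Pcdha, Pcdhb or Pcdhg, out of 37310 records in that annotation. They lie on chromosome 18, all on the plus strand, and with 50 kb on each side they span chr18:37039939-38051527, a region of 1012 kb. Of the records 2 are Pcdha genes, 22 are Pcdhb genes and 1 is a Pcdhg gene. The wild type (WT) cells were Hmgn1+/+n2+/+ and the DKO cells Hmgn1-/- n2-/-, both of strain C57BL/6. The cells were embryonic fibroblasts (MEFs), embryonic stem cell lines (ESCs) and resting splenic B cells, with 2 libraries per genotype for each antibody. The labels do not say whether the 2 ESC libraries of a genotype came from separate lines, so genotype and line cannot be told apart, and p-values measure only the spread between these libraries. Input samples, the background for peak calling, are labelled by genotype without a replicate number. Libraries of a genotype may therefore share their background.

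Clustered protocadherins are cell adhesion proteins, best known from neurons, where each cell uses its own combination of them. In the Pcdha and Pcdhg clusters a row of variable first exons, each with its own promoter, is spliced to a shared set of constant exons, whereas each Pcdhb gene is a single exon. The DNA-binding protein CTCF is known to bind at most of these promoters and inside many first exons, and to link them with distant enhancers. A few members, Pcdhb1 among them, are known to lack the conserved promoter element. GENCODE vM1 merges the variable exons into few records: Pcdha11 (ENSMUSG00000007440.7, chr18:37089939-37347311) carries 10 transcript starts, Pcdha3 (ENSMUSG00000091969.1, chr18:37105801-37108685) carries 1, and Pcdhgc5 (ENSMUSG00000023036.7, chr18:37833989-38001527) carries 10. The starts are therefore given by transcript name, such as Pcdha11-201, and the C-type isoforms were not identified. The record named Pcdhgc5 holds all 10 annotated Pcdhg starts and not that isoform alone. The members are near copies of each other, so reads could be split between them or placed on the wrong one, and every value of a single member is uncertain in that respect. No sequence of these loci is printed.

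The values are fold enrichments, the ratio of the read pileup at a peak summit to the local background, as given by the peak caller. The lists hold no read counts, so the depth behind each value is unknown. For CTCF the lists were of even size, with 62069 to 64634 peaks per library, and the median fold enrichment over all sites was 17.9 to 18.8. The lists of other antibodies differed more between genotypes: the DKO lists held on average 0.318 times as many peaks as the WT lists for Brd3 and 2.42 times as many for OCT4. The H3K27ac lists had 3 peaks within 1000 bp of the Hmgn2 record in both WT libraries, and 0 in both DKO libraries, whereas at the Hmgn1 record they had 2 and 2 in WT, against 4 and 5 in DKO libraries. Peaks of H3K27ac were called in all 4 libraries at the starts of 8 of 8 fibroblast markers, 1 of 8 ESC markers, 0 of 6 B cell markers and 1 of 5 neuron markers in MEFs, and NANOG peaks in ESCs at 7 of 8 ESC markers, 0 of 8 fibroblast markers, 0 of 6 B cell markers and 3 of 5 neuron markers.

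CTCF peaks in ESCs covered the region densely and evenly between genotypes. The 2 WT libraries held 97 and 101 peaks in the region, and the 2 DKO libraries 99 and 98. This was 95.9 to 99.8 peaks per Mb, against 23.4 to 24.3 per Mb over the assembled genome. Merged over the libraries the peaks formed 98 sites, of which 93 (94.9%) were called in all 4 libraries, where 79.7% of all CTCF sites were. The sites followed the genes: 22 lay in Pcdha, 38 in Pcdhb, 23 in Pcdhg, 2 between Pcdha and Pcdhb, 7 between Pcdhb and Pcdhg, 1 in the left flank at the first Pcdha start and 5 in the right flank within introns of Diap1. At the 93 sites called in all libraries the median fold enrichment was 20.9 and 19.8 in WT cells, against 20.2 and 19.7 in DKO cells.

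**Figure D1:**
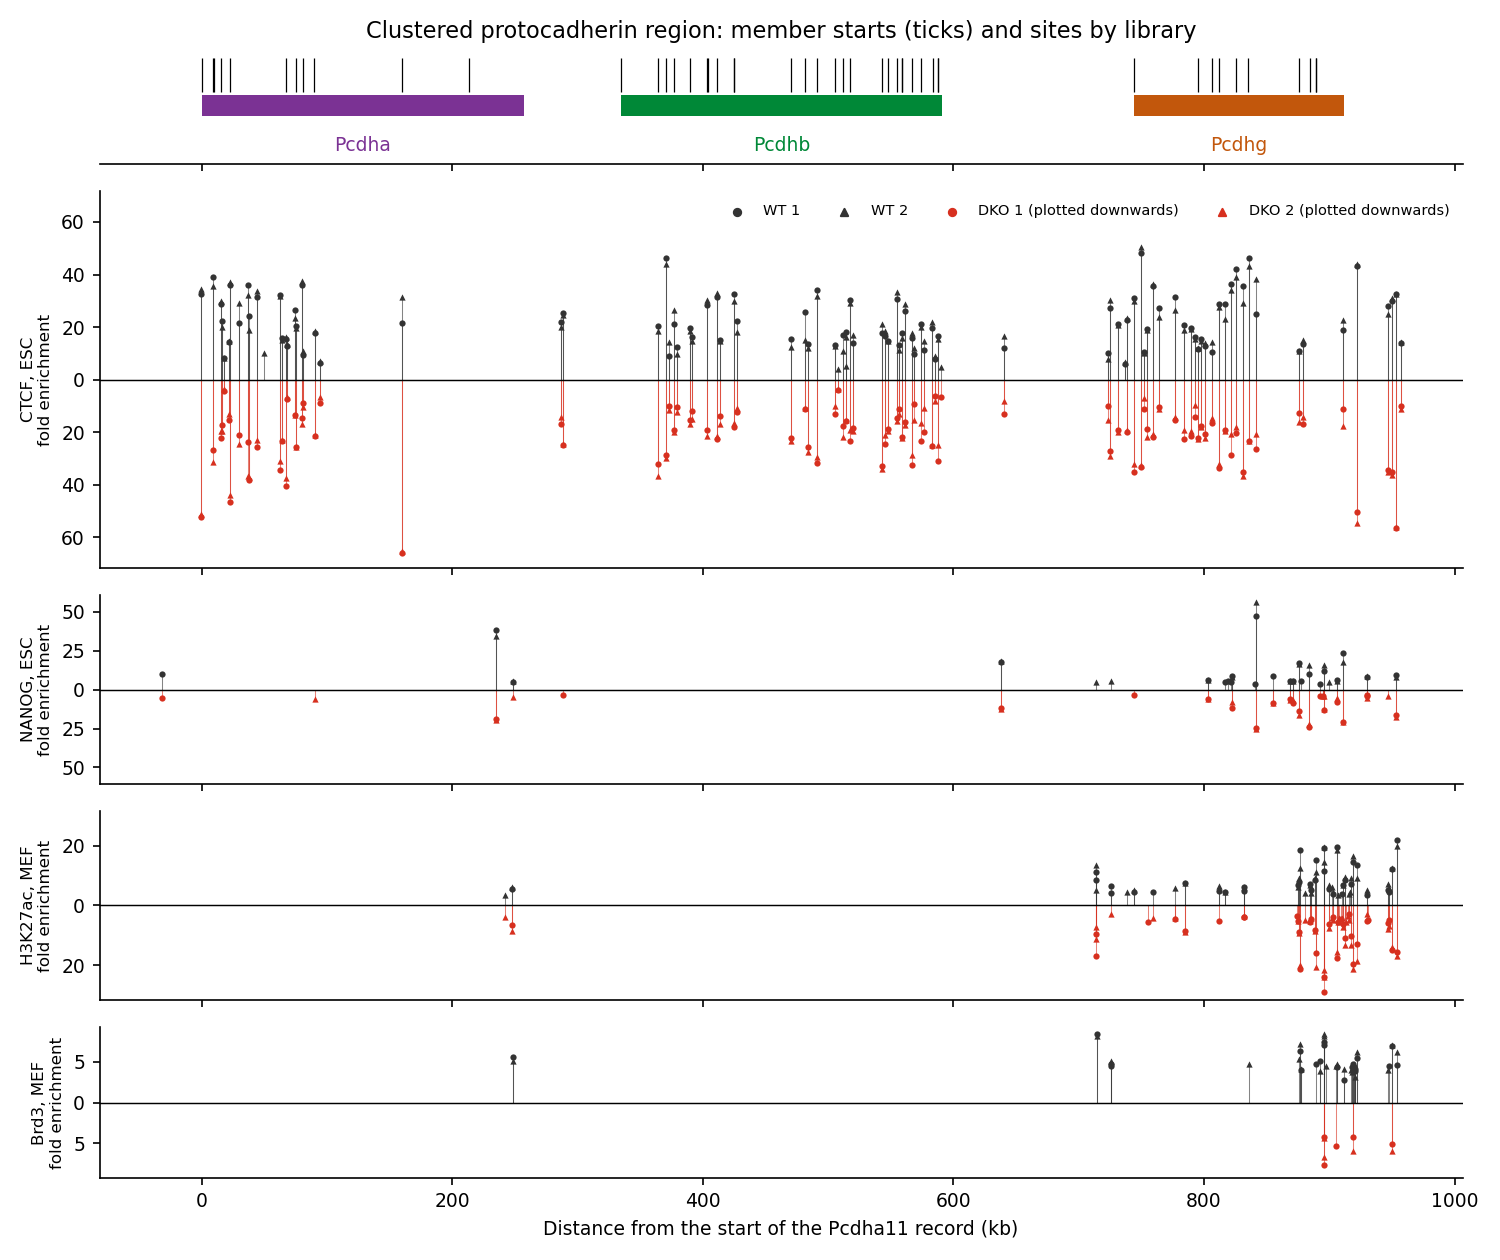
Peak sites of CTCF and NANOG in ESCs and of H3K27ac and Brd3 in MEFs across the clustered protocadherin region. The x axis is the distance in kb from the start of the Pcdha11 record and the y axis the fold enrichment of each library (WT upwards in black, DKO downwards in red, circles replicate 1, triangles replicate 2), with member starts as ticks above the 3 clusters. CTCF sites stand along all 3 clusters, whereas the other marks have no site in Pcdhb.

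**Figure D2:**
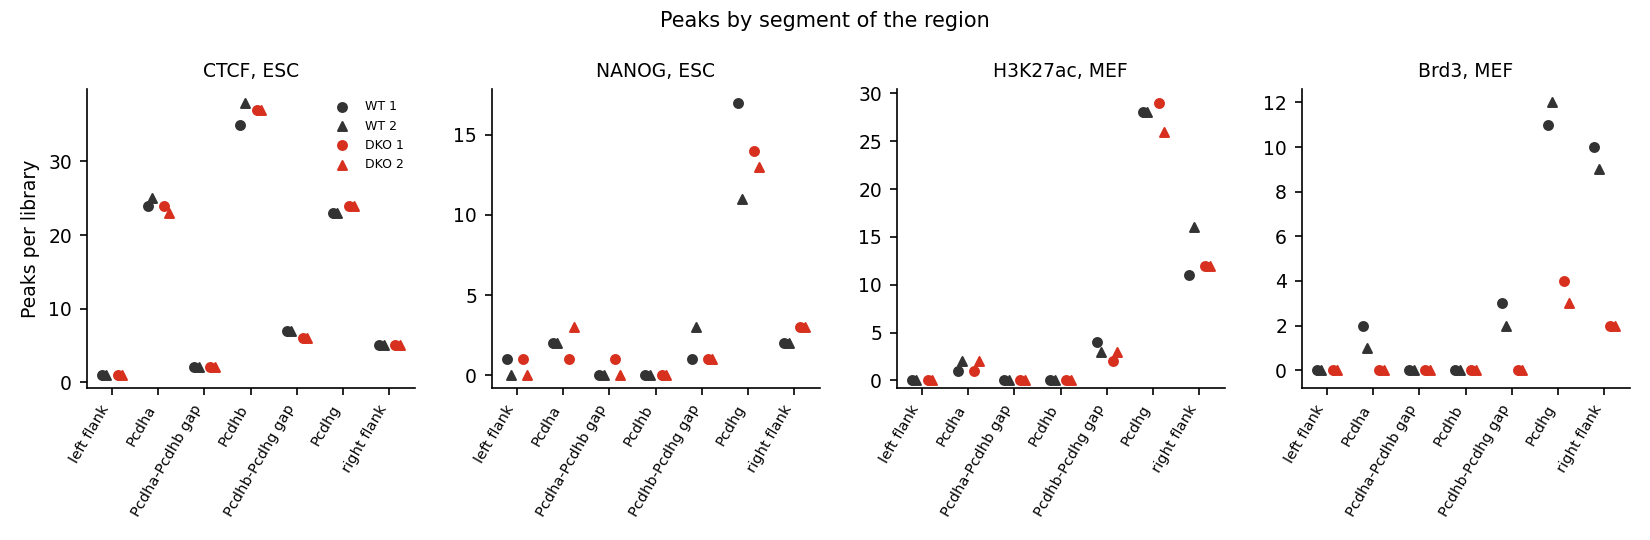
Number of peaks in each segment of the region (x axis) for each of the 4 libraries of an antibody (y axis, peaks per library; WT black, DKO red). CTCF has 35 to 38 peaks in Pcdhb, where NANOG, H3K27ac and Brd3 have 0 in every library.

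A CTCF peak lay within 1000 bp of a transcript start in all 4 libraries for 24 of the 25 members, the exception being Pcdhb1. Over all 22372 protein-coding genes with such a start the share was 19.1%. Counted by start, 42 of the 47 distinct member starts had such a peak (10 of 11 in Pcdha, 25 of 26 in Pcdhb and 7 of 10 in Pcdhg), against 16.3% of all protein-coding starts. The starts without a peak were Pcdha11-202, Pcdhb1-201, Pcdhgc5-205, Pcdhgc5-203 and Pcdhgc5-209. For Pcdha11-202 the nearest CTCF summit was 54007 bp away, for Pcdhb1 29773 bp, and for the 3 Pcdhgc5 starts 6120 to 10695 bp. The starts without CTCF in Pcdha and Pcdhg are thus the most downstream ones of each cluster. CTCF summits sat just before the starts: 35 sites had their summit 13 to 255 bp upstream of a member start, with a median of 79 bp.

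In Pcdha the promoter site was often paired with a site inside the first exon. In all, 8 starts had a summit 113 to 219 bp upstream, and 6 had one 445 to 561 bp downstream of the start. Pcdha3, Pcdha11-208, Pcdha11-207, Pcdha11-206 and Pcdha11-205 had both. At Pcdha11-208 the exonic site was the higher of the pair, with fold enrichments of 35.9 and 37.1 in WT cells, against 46.5 and 43.9 in DKO cells, where the promoter site had 14.5, 14.8, 15.3 and 13.1. At Pcdha11-205 in WT cells the order was the opposite, with 36.0 and 37.4 at the promoter and 9.19 and 10.8 in the exon. Promoter and exonic sites therefore did not keep a fixed ratio from one variable exon to the next.

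In Pcdhb the layout was almost the same from gene to gene. All 21 genes from Pcdhb2 to Pcdhb22 had a CTCF summit 13 to 255 bp upstream of the start, and 16 of them had a further site 1657 to 2426 bp downstream of it, inside the single exon. The median distance of these downstream sites was 2191 bp. Pcdhb2, Pcdhb6, Pcdhb9, Pcdhb11 and Pcdhb16 had the promoter site only, and Pcdhb1 had neither. The promoter sites had median fold enrichments of 20.2 and 20.1 in WT cells, against 22.3 and 21.3 in DKO cells, and the downstream sites, where called, 13.8, 14.5, 12.04 and 15.03. Among the 14 genes with both sites called in all 4 libraries the promoter site was the higher in every library in 10. In WT cells the strongest CTCF site of the cluster was the promoter site of Pcdhb3, at 46.2 and 44.1, against 28.9 and 29.7 in DKO cells, where the promoter sites of Pcdhb2 and Pcdhb15 were higher. Pcdhb20, a pseudogene record, carried both sites like its neighbours, with 21.2, 20.1, 23.3 and 16.7 at its promoter.

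**Figure D3:**
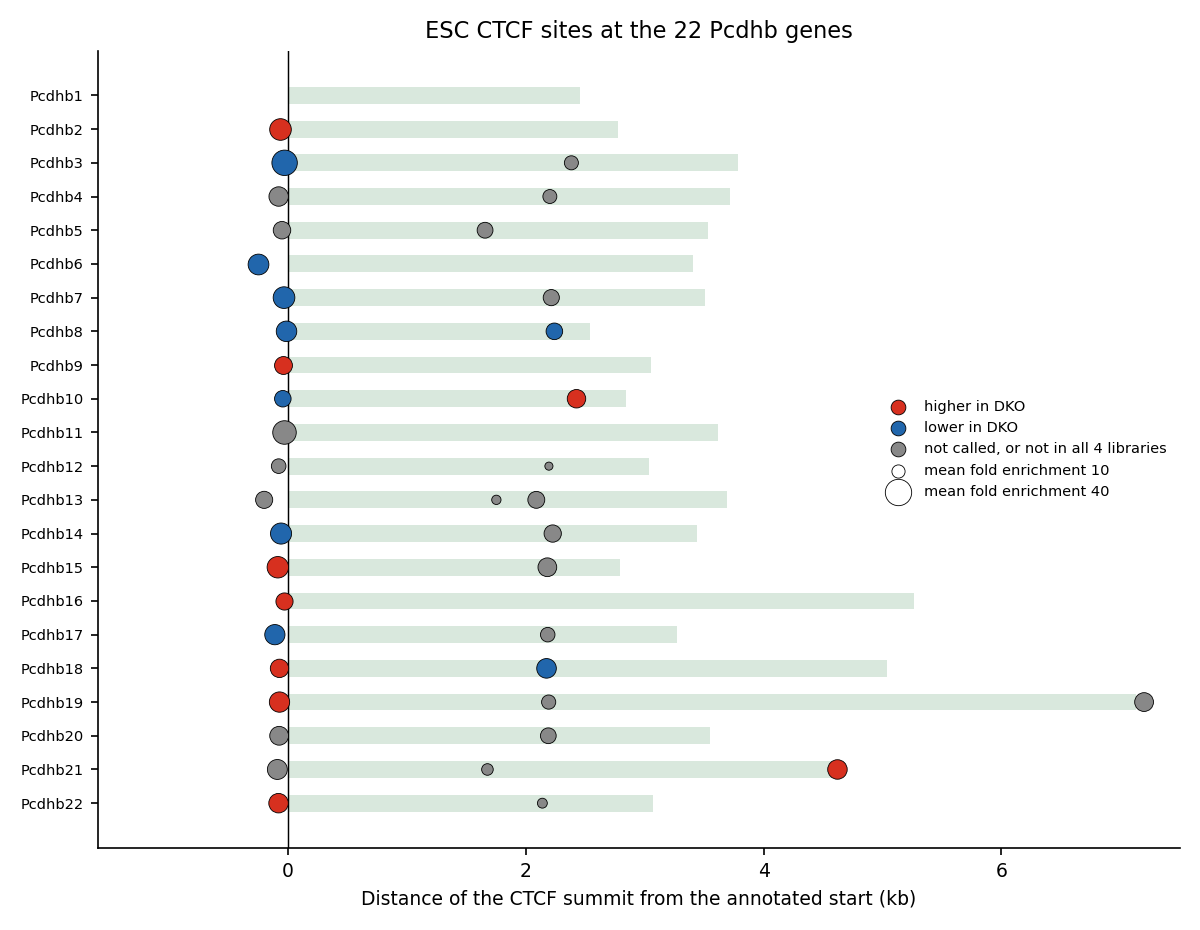
CTCF sites of ESCs at the 22 Pcdhb genes in genomic order (rows), by distance in kb of the summit from the annotated start (x axis); green bars are the gene records, circle area is the mean fold enrichment over the libraries with a peak, and colour is the DKO against WT call. Summits stack just before the start in 21 genes and again near 2191 bp after it in 16; the circles at the far ends of Pcdhb19 and Pcdhb21 are the promoter sites of Pcdhb20 and Pcdhb22.

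In Pcdhg, 6 starts had a summit 28 to 108 bp upstream (Pcdhgc5-207, Pcdhgc5-206, Pcdhgc5-210, Pcdhgc5-201, Pcdhgc5-204 and Pcdhgc5-208), and Pcdhgc5-202 had one 305 bp downstream. The highest of these was that of Pcdhgc5-202 in WT cells, at 46.1 and 43.1, and low values were found at Pcdhgc5-208, at 10.9, 11.1, 12.7 and 16.02, and at Pcdhgc5-210, at 10.5, 14.4, 16.6 and 14.8. In WT cells the strongest CTCF site of the cluster was in an intron of Pcdhgc5, chr18:37839653-37840223, with 48.2 and 50.3, against 33.4 and 32.5 in DKO cells. The higher of the 2 sites between Pcdha and Pcdhb was chr18:37377833-37378394, with near-equal values (25.2, 24.6, 25.0 and 24.6), and the highest between Pcdhb and Pcdhg was the promoter site of Pcdhgc5-207 (31.0, 29.7, 35.0 and 32.3). At the downstream end, chr18:38011696-38012412 in an intron of Diap1, a formin gene, reached 43.3 and 43.9 in WT cells, against 50.3 and 54.5 in DKO cells.

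A core motif of CTCF, whose letters are not printed here, was looked for on the plus and the minus strand up to 100 bp from every summit. It was found at 16 of the 98 sites (16.3%), against 37.9% of all CTCF sites, and at 0 of the positions 5000 bp downstream of the 98 summits, where the share over all sites was 1.80%. None of the 35 sites just upstream of a start held this exact motif. Where the motif was found, its strand went with position: all 7 matches in Pcdha were on the plus strand, the strand of the genes, whereas the 1 match between Pcdha and Pcdhb, all 3 in Pcdhg and both in the right flank were on the minus strand. In Pcdhb 1 match was on the plus and 2 on the minus strand. A match is a description of the letters only, and its absence says nothing on CTCF binding.

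WT and DKO cells were compared at the 93 sites called in all 4 libraries. Each library's log2 fold enrichment was centred on its median over all sites, and limma's moderated test was fitted over all 56473 such sites of the genome with Benjamini-Hochberg adjustment. In DKO cells CTCF enrichment was higher at 20 of the 93 sites (21.5%) and lower at 27 (29.0%), where 22.6% of all CTCF sites were called higher and 25.2% lower. The shares in the region were thus close to those of the genome. The median log2 difference (DKO minus WT) was -0.08 in the region and -0.03 over all sites, and its SD over sites was 0.58 and 0.59. Between replicates of one genotype the median absolute log2 difference was 0.13 at the region's sites and 0.13 over all CTCF sites. Between the genotype means, each over 2 libraries, it was 0.35 and 0.37, so the replicate and genotype values are not like measures. With the authors' -log10 p in place of fold enrichment 10 sites were called higher and 15 lower, where 12.47% and 13.35% of all CTCF sites were. Of the 47 calls 22 were lost with -log10 p, among them all 14 that were lost without 1 of the libraries. The other 8 were the promoter sites of Pcdha3, Pcdhb6, Pcdhb14 and Pcdhb15, the exonic site of Pcdhb8, and 3 intronic sites, 21585 bp after Pcdha11-208, 3239 bp before Pcdha11-207 and 5207 bp after Pcdhgc5-206.

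**Figure D4:**
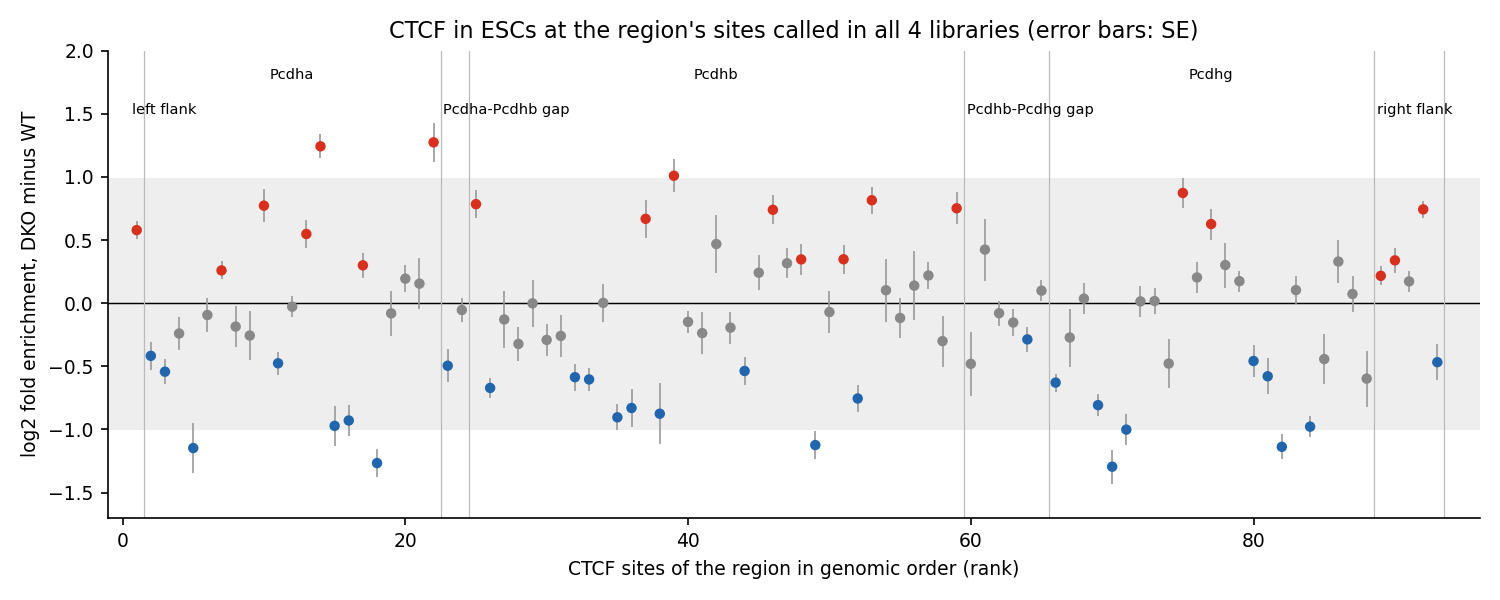
Difference in CTCF enrichment between DKO and WT ESCs (y axis, log2 of centred fold enrichment, with SE) at the 93 sites of the region called in all 4 libraries, in genomic order (x axis, rank). Red points were called higher and blue points lower in DKO cells, and the grey band holds the middle 90% of all CTCF sites of the genome; sites of both directions stand side by side in every cluster.

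Some Pcdha promoters rose and others fell in DKO cells. The promoter site of Pcdha11-201, chr18:37249372-37249974, had fold enrichments of 21.7 and 31.6 in WT cells, against 65.9 and 65.1 in DKO cells. The DKO libraries agreed closely and both lay far above the WT libraries, and the log2 difference was 1.27 (SE 0.15, limma adjusted p = 0.0006). Pcdha11-207 rose from 15.5 and 16.3 to 40.4 and 37.3, a log2 difference of 1.24 (SE 0.09, limma adjusted p = 0.00013). The first start of the cluster, Pcdha11-204, rose from 32.5 and 34.5 to 52.3 and 51.3. In contrast, the promoter of Pcdha11-205 had 36.0 and 37.4 in WT cells, against 14.6 and 17.0 in DKO cells, the groups again standing well apart (log2 difference -1.27, SE 0.11, limma adjusted p = 0.0002). Pcdha11-206 fell by 0.93, Pcdha3 by 0.54 and Pcdha11-209 by 0.42 on the log2 scale, and the promoter of Pcdha11-208 was not called (-0.09). Of the 8 promoter sites of Pcdha starts 3 rose, 4 fell and 1 was not called, against 22.6% of all CTCF sites called higher and 25.2% lower.

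Promoter and exon of the same variable exon could also differ. At Pcdha11-207 the exonic site had 12.7 and 13.7 in WT cells, against 7.39 and 6.54 in DKO cells, and fell by 0.97 on the log2 scale, although the promoter rose. At Pcdha11-206 the exonic site rose by 0.30 from 20.5 and 19.8 to 25.6 and 25.7, while the promoter fell. At Pcdha11-208 the exonic site rose by 0.26. The calls at these last 2 exonic sites, and that at the promoter of Pcdha11-209, were each lost without at least 1 of the libraries. A weak site in the exon of Pcdha3, 2197 bp after its start, had 8.30 and 8.28 in WT cells, against 4.41 and 3.39 in DKO cells, and fell by 1.15 on the log2 scale. Among the sites between starts in the Pcdha11 introns, those 15437 bp after Pcdha11-208 and 3239 bp before Pcdha11-207 rose by 0.77 and 0.55, and that 21585 bp after Pcdha11-208 fell by 0.48.

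In Pcdhb 7 promoter sites rose, 7 fell and 7 were not called, where 22.6% of all CTCF sites were called higher and 25.2% lower. Whether these sites differed from the genome was not tested. Those that rose belonged to Pcdhb2, Pcdhb9, Pcdhb15, Pcdhb16, Pcdhb18, Pcdhb19 and Pcdhb22, with log2 differences of 0.35 to 0.82. Pcdhb19 had the largest of these, from 16.01 and 17.6 in WT to 32.5 and 28.8 in DKO cells (SE 0.11, limma adjusted p = 0.00088). Pcdhb15 rose from 17.7 and 21.3 to 33.0 and 34.0, and Pcdhb22 from 16.4 and 15.4 to 30.8 and 24.9. Those that fell belonged to Pcdhb3, Pcdhb6, Pcdhb7, Pcdhb8, Pcdhb10, Pcdhb14 and Pcdhb17. Pcdhb17 fell most, by 1.12 on the log2 scale, from 30.6 and 33.3 to 14.5 and 15.9 (SE 0.11, limma adjusted p = 0.00028). Pcdhb8 had 32.6 and 29.9 in WT cells, against 17.9 and 16.6 in DKO cells, and fell by 0.90. The WT libraries of Pcdhb10 disagreed, at 25.7 and 15.1, and the DKO libraries were at 11.4 and 10.8 (limma adjusted p = 0.021). The calls at the promoters of Pcdhb9, Pcdhb10, Pcdhb16 and Pcdhb18 were each lost without at least 1 of the libraries.

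Of the 14 downstream exonic sites of Pcdhb called in all 4 libraries 1 rose, 2 fell and 11 were not called as changed. Over all CTCF sites 22.6% were called higher and 25.2% lower. Whether the exonic sites differed from the promoter sites or from the genome was not tested. That of Pcdhb10 rose from 13.6 and 11.9 to 25.5 and 27.6, a log2 difference of 1.01 (SE 0.13, limma adjusted p = 0.00077), opposite to its promoter. That of Pcdhb18 fell by 0.75 from 26.2 and 28.7 to 16.2 and 17.4, again opposite to its promoter. At Pcdhb8 both sites fell, the exonic one by 0.83. The exonic site of Pcdhb12 was called in 3 libraries and that of Pcdhb22 in 2, so neither was tested.

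In Pcdhg 2 sites rose and 8 fell among 23, where 22.6% and 25.2% of all CTCF sites did; whether the cluster differed from the genome was not tested. The promoter of Pcdhgc5-204 had 42.1 and 38.9 in WT cells, against 20.2 and 17.9 in DKO cells, and fell by 1.14 on the log2 scale (SE 0.10, limma adjusted p = 0.00019). The site at the start of Pcdhgc5-202 fell by 0.98, from 46.1 and 43.1 to 23.3 and 23.5. The promoter of Pcdhgc5-206 rose from 11.7 and 11.99 to 22.2 and 22.6, a log2 difference of 0.87 (SE 0.12, limma adjusted p = 0.001), and a site 5207 bp after that start rose by 0.63. Between the first and the second annotated start of the record, 4 intronic sites fell, by 0.63, 0.81, 1.29 and 1.0 on the log2 scale. The largest fall of the region was at chr18:37853763-37854434, from 27.2 and 23.8 to 10.4 and 11.04 (SE 0.13, limma adjusted p = 0.00033). The remaining 2 sites, 4832 bp after Pcdhgc5-201 and 4244 bp before Pcdhgc5-204, fell by 0.46 and 0.58, and both calls were lost without WT replicate 1. The promoters of Pcdhgc5-207, Pcdhgc5-210, Pcdhgc5-201 and Pcdhgc5-208 were not called, with log2 differences of 0.10 to 0.33.

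In the right flank, 3 of 5 sites in Diap1 introns rose and 1 fell by 0.47, where 22.6% and 25.2% of all CTCF sites did. The largest rise was from 32.5 and 32.4 to 56.4 and 56.0 at chr18:38042969-38043768 (log2 difference 0.74, SE 0.07, limma adjusted p = 0.00022). On each side of Pcdhb 1 site was called lower, by 0.50 and 0.29. Apart from the largest, these calls outside the clusters were each lost without at least 1 of the libraries. Of the 98 CTCF sites 1 was called in both WT and neither DKO library, and 0 in the reverse pattern, where 1.31% and 2.89% of all CTCF sites were. It lay between Pcdhb and Pcdhg, chr18:37826641-37826845, with fold enrichments of 5.76 and 6.81 in WT cells.

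The pluripotency factors had far fewer sites in the region than CTCF, and none in Pcdhb. NANOG, a homeodomain factor of ESCs, had 23 and 18 peaks in WT cells, against 21 and 20 in DKO cells, forming 33 sites, 21 of them in Pcdhg. Of the 33 NANOG sites 9 (27.3%) overlapped a CTCF site, where 6.68% of all NANOG sites did, and these were 9.18% of the CTCF sites of the region against 7.49% of all. CTCF peaks were also denser in the region, at 95.9 to 99.8 per Mb against 23.4 to 24.3 over the genome. Whether the overlap exceeds what that density gives was not tested. By record 1 of the 25 members had a NANOG peak at a start in all 4 libraries, against 13.3% of all genes. Only 2 of the 47 member starts, Pcdhgc5-208 and Pcdhgc5-205, had a NANOG peak within 1000 bp in all 4 libraries, against 11.7% of all protein-coding starts. The start of Pcdhgc5-205 had no CTCF peak.

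Of 14 NANOG sites called in all 4 libraries 2 were higher and 4 lower in DKO cells (14.3% and 28.6%), against 14% and 16% of all NANOG sites. Without DKO replicate 1 these counts were 1 and 2. The strongest site, chr18:37931132-37931502 in an intron of Pcdhgc5, had 47.6 and 56.4 in WT cells, against 24.7 and 25.4 in DKO cells, a log2 difference of -1.09 (SE 0.12, limma adjusted p = 4.7e-05). The next, chr18:37325036-37325495 in overlapping introns of Pcdha11 and Gm10544, a lincRNA gene on the other strand, fell by 0.98 from 38.5 and 34.7 to 18.7 and 19.5. A site between Pcdhb and Pcdhg fell by 0.62, from 17.9 and 18.2 to 12.04 and 12.3, and one in Diap1 by 0.90, from 8.31 and 8.49 to 4.21 and 5.17. Both of the latter calls, and the one that follows, were lost without DKO replicate 1. The site 594 bp before Pcdhgc5-205 rose by 0.83, from 9.86 and 15.7 to 23.8 and 21.98 (limma adjusted p = 0.0084). The site at chr18:38043142-38043465 rose by 0.91, from 9.33 and 8.13 to 16.5 and 17.3, and lay within the CTCF site chr18:38042969-38043768, which rose. In Pcdhg 1 NANOG site was called in both DKO and neither WT library, at 4.37 and 4.33, where 9.44% of all NANOG sites had that pattern.

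OCT4, the POU factor of pluripotent cells, had 4 and 5 peaks in WT cells, against 8 and 9 in DKO cells, all in Pcdhg or between Pcdhb and Pcdhg. The ratio of DKO to WT peaks was 1.89 in the region and 2.42 over the genome, and the exact permutation test of 2 against 2 libraries cannot give a p below 0.33. Of the 9 sites 3 were called in both DKO and neither WT library, against 28.8% of all OCT4 sites, with fold enrichments of 4.37 to 7.20. With lists cut to equal length 0 of 5 sites had that pattern, against 7.48% of all OCT4 sites. Of the 4 sites called in all libraries 1 was higher in DKO cells and 0 lower, where 20.1% and 21.7% of all sites were: chr18:38000365-38000678, in an exon at the 3' end of Pcdhgc5, had 7.52 and 6.91 in WT cells, against 18.8 and 23.2 in DKO cells (log2 difference 0.57 after centring, SE 0.18, limma adjusted p = 0.014). The site was not called without WT replicate 2 or without DKO replicate 2. Without centring all 4 were called higher, as 85.7% of all OCT4 sites were, since the median of all OCT4 sites then shifted by 0.93 on the log2 scale. The OCT4 site within the strongest NANOG site had 17.2 and 13.9 in WT cells, against 24.0 and 33.0 in DKO cells, and was not called (-0.10).

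SOX2, which often binds with OCT4, had 4 and 2 peaks in WT cells, against 5 and 5 in DKO cells. Its 6 sites all overlapped NANOG sites, as 98.7% of all SOX2 sites did. Of the 2 called in all 4 libraries, 0 passed the test (12.5% of all SOX2 sites were called higher and 14.6% lower). At an unadjusted p under 0.05 there was 1: the site within the strongest NANOG site, with 15.1, 10.1, 10.9 and 10.2 (log2 difference -0.62 after centring, limma adjusted p = 0.054). With quantile normalization 1 site was called lower, against 12.8% of all SOX2 sites. The same count was found with the replicate number as a block in the fit, against 15.6% of all. KLF4 had 2, 1, 0 and 1 peaks at 2 sites, neither called in all 4 libraries. Its site in Pcdha lay within the NANOG site of Gm10544 and had 8.71 and 8.41 in WT and 7.81 in 1 DKO library.

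In MEFs, H3K27ac, the acetyl mark of active promoters and enhancers, was gathered at the downstream end of Pcdhg. The WT libraries had 44 and 49 peaks in the region and the DKO libraries 44 and 43, or 42.5 to 48.4 per Mb against 29.0 to 32.0 per Mb of the genome. Pcdhg held 26 to 29 of these peaks, the right flank 11 to 16, Pcdha 1 or 2 and Pcdhb 0. From 1000 bp before Pcdhgc5-208 to the end of the record, a stretch of 36.5 kb, peaks covered 45.7% and 46.8% of the bases in WT and 48.7% and 57.3% in DKO cells. The starts of Pcdhgc5-208, Pcdhgc5-205, Pcdhgc5-203 and Pcdhgc5-209 were within 1000 bp of a peak in all 4 libraries, so that 4 of 47 member starts had one, against 48.5% of all protein-coding starts, and by record 1 of 25 members, against 47.8% of all protein-coding genes. Of these 4 starts 3 had no CTCF peak in ESCs, and no Pcdha or Pcdhb start had an H3K27ac peak.

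By the mean over libraries the highest acetylation at a start was at Pcdhgc5-208, with 18.7 and 12.6 in WT cells, against 21.2 and 20.1 in DKO cells, followed by Pcdhgc5-209 with 15.4, 11.3, 15.8 and 20.5. At Pcdhgc5-205 the values were 7.13, 6.71, 5.54 and 5.37. None of these 3 sites was called as changed. Of 27 H3K27ac sites called in all libraries 1 was higher in DKO cells (3.70%) and 0 lower, where 3.89% and 3.62% of all sites were called. It was intronic in Pcdhgc5, chr18:37985931-37987864, with 11.4 and 14.7 in WT cells, against 29.0 and 24.1 in DKO cells (log2 difference 1.11, SE 0.19, limma adjusted p = 0.0012), and 4 were called higher without WT replicate 1. With peaks merged where summits lay within 200 bp, 0 of 22 sites were called higher, against 5.17% of all sites. With sites called in at least 2 libraries 0% of all H3K27ac sites were called in either direction. That setting therefore cannot decide on the sites of the region. The median log2 difference of the 27 sites was 0.24, against 0.00 over all sites. Of 51 sites 2 were called in both WT and neither DKO library, against 5.83% of all sites: the start of Pcdhgc5-207 (4.39 and 5.29) and a site in an exon of the lincRNA gene Gm16882 (4.50 and 4.40).

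Of the 98 CTCF sites of ESCs 17 (17.3%) overlapped an H3K27ac site of MEFs, against 11.3% of all CTCF sites. Taf7, a general transcription factor gene between Pcdhb and Pcdhg, and Gm10544 had H3K27ac peaks at their starts in all 4 libraries. The site in the exon at the start of Taf7 had 11.1, 13.5, 16.8 and 11.2, and that in the intron of Gm10544 and Pcdha11 had 5.42, 6.23, 6.47 and 8.59. Neither differed beyond the test's threshold. The latter was the only acetylated site of Pcdha called in all libraries.

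Brd3, a bromodomain protein that binds acetylated histones, was found at the acetylated places and had fewer peaks in DKO cells, in the region as in the genome. The WT libraries had 26 and 24 peaks in the region and the DKO libraries 6 and 5 (two-sided exact permutation p = 0.33, the smallest possible). The ratio of DKO to WT peaks was 0.22 in the region and 0.318 over the genome. Of the 28 sites 27 (96.4%) overlapped an H3K27ac site, as 93.6% of all Brd3 sites did. Of the 28 sites 12 (42.9%) were called in both WT and neither DKO library and 0 in the reverse pattern, against 27% and 0.0428% of all Brd3 sites. Among them were the site next to Taf7, at 8.45 and 8.23, the start of Pcdhgc5-208, at 6.34 and 7.19, and Gm10544, at 5.63 and 5.14, which all are places with H3K27ac peaks in all 4 libraries. With lists cut to equal length 1 of 8 sites was WT-only and 1 DKO-only, against 7.40% and 2.94% of all Brd3 sites.

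Of the 47 member starts 3 and 2 had a Brd3 peak within 1000 bp in the WT libraries, all in Pcdhg, against 0 and 0 in the DKO libraries. No start and no member therefore had one in all 4 libraries, where 17.1% of all starts and 17.6% of all genes did. Only 4 Brd3 sites were called in all libraries, and 0 passed the test, also at an unadjusted p under 0.05 (0.83% of all sites were called higher and 0.664% lower). At chr18:37983726-37985715 in Pcdhgc5 the values were 7.03 and 8.48 in WT cells, against 7.65 and 6.70 in DKO cells. At chr18:37985941-37986621, within the H3K27ac site that rose, Brd3 had 7.503 and 8.18 in WT cells, against 4.21 and 4.40 in DKO cells (log2 difference -0.45 after centring, SE 0.25, limma adjusted p = 0.34). Without centring 1 of the 4 sites was called lower, as were 20.6% of all Brd3 sites, their median then being shifted by -0.39.

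H3K27me3, the mark of Polycomb silencing, had 0 peaks in the region in all 4 MEF libraries, and so did histone H1. These lists were short, with 117 to 553 and 281 to 315 peaks over the genome, so no statement on the mark itself follows. The acetyltransferase p300 had 3 and 1 peaks in WT cells, against 2 and 1 in DKO cells, all in Diap1. The 1 site called in all libraries did not pass the test (limma adjusted p = 0.13, with 0% of all sites called in either direction), although its unadjusted p was under 0.05. With the replicate number as a block in the fit it was called higher, as 4.16% of all p300 sites were. The leucine zipper factor CEBPB had 4 and 4 peaks in WT cells, against 2 and 3 in DKO cells. Its intronic site in Pcdha11, chr18:37313797-37314123, had 32.1 and 25.8 in WT cells, against 10.6 and 12.9 in DKO cells (log2 difference -0.56 after centring, limma adjusted p = 0.0052), and it was not called without WT replicate 1 or without DKO replicate 1. With sites called in at least 2 libraries, and missing values set to the lowest of that library, its log2 difference after centring turned to 1.29. A site in Pcdhgc5 had 10.4, 10.8, 9.64 and 10.5 and was called higher by 0.66 after centring, but not without it, when the median of all CEBPB sites shifted by -0.68 and its difference was below 0. Over all CEBPB sites 27.9% were called higher and 22.9% lower. Another site, in the same stretch as the acetylated end of Pcdhg, was called in both WT libraries at 11.8 and 13.6 and in neither DKO library, as 39.3% of all CEBPB sites were. In B cells, ETS1 had 1 peak in each WT library and 0 in DKO, in the Diap1 intron, Ikaros had 1 in WT replicate 2 at Taf7, and the other 3 factors had 0.

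Of 12 protocadherin genes outside the clusters 4 (Pcdh1, Pcdh7, Pcdh15 and Pcdh19) had a CTCF peak at a start in all 4 ESC libraries, and 4 (Pcdh7, Pcdh11x, Pcdh18 and Pcdh19) had H3K27ac in all 4 MEF libraries. Over all protein-coding genes 19.1% had such a CTCF peak and 47.8% such an H3K27ac peak. Of 12 genes known to act on the clusters, cohesin subunits and silencing factors among them, 5 had a CTCF peak at a start in all 4 libraries and 11 had H3K27ac, the exception being Dnmt3b, which lacked it in DKO replicate 1. Ctcf itself had both.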

How the data were processed

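The authors sequenced ChIP DNA of WT and DKO cells, aligned reads to mm9 and called peaks per library against input. Their processing notes name bcl2fastq 1.8.4, cutadapt 1.16, BWA 07.17 and MACS2 2.1.1.20160309. The deposited peak lists give, per peak, a fold enrichment ratio, a -log10 p, a -log10 q, a score (10 times -log10 q) and the summit. They hold no read counts, so depth is unknown and limits precision, and the authors' read-based differential test could not be repeated. Peaks of the 4 libraries of an antibody were merged into sites at 1 bp of overlap, with the highest fold enrichment per library as the value. Log2 values, centred on each library's median, were tested with limma 3.58.1 (moderated test with variance trend, R 4.3.3) over all sites called in all 4 libraries, with Benjamini-Hochberg adjustment at 0.05. Procedures were tested on simulated data. Peak numbers were compared by exact permutation (2 against 2 libraries, two-sided, smallest p 0.33). Starts and gene types came from GENCODE vM1. Sites were named where called in the region, or where strongest in a segment or at a member start. Same-numbered libraries did not deviate together (correlations -0.0149 to 0.0216). The members and lists were chosen with earlier results of these data known.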

Additional observations from a re-analysis of the deposited data

How the results depend on the processing

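The lists hold only called peaks, so a site missing from a library may lie just under the caller's threshold, and with 2 libraries per genotype every count rests on few values. Of the 47 CTCF sites called, 25 were called with the same sign in every setting tried, and 14 lost the call without 1 of the libraries. With -log10 p in place of fold enrichment, 10 CTCF sites were higher and 15 lower (12.47% and 13.35% of all). In that setting NANOG had 2 lower (6.92% of all) and OCT4 0 higher (11.1%). Without centring, OCT4 had 4 higher (85.7% of all), Brd3 1 lower (20.6%) and CEBPB 0 higher (4.27%). The CEBPB site in Pcdhg then had a log2 difference of -0.0747. With quantile normalization OCT4 had 2 higher and SOX2 1 lower. With sites called in at least 2 libraries (missing values set to the lowest of that library), OCT4 had 0 higher (0.737% of all) and CEBPB 2 (53.4%). H3K27ac had 0 higher, but 0% of all its sites were called in either direction, so this setting cannot decide. The CEBPB site in Pcdha11 then had a log2 difference of 1.29. With summits within 200 bp, H3K27ac had 0 higher (5.17% of all) and 1 DKO-only site (4.47% of all), and CTCF 2 DKO-only sites (2.94%). Leaving out 1 library gave 13 to 18 CTCF sites higher and 22 to 25 lower, NANOG 1 to 2 higher and 2 to 4 lower, OCT4 0 to 1 higher, SOX2 0 to 1 lower, H3K27ac 1 to 4 higher and CEBPB 0 to 1 lower. With peaks merged within 1000 bp, the region held 20.5 H3K27ac peaks in WT and 18 in DKO cells and 14 and 3.5 Brd3 peaks, and without flanks 15.5 and 3.5 Brd3 peaks. With lists cut to equal length, NANOG and OCT4 had 0 DKO-only sites (5.10% and 7.48% of all their sites), H3K27ac 1 (5.67%), and Brd3 1 WT-only and 1 DKO-only (7.40% and 2.94%). With any library of 1 genotype, CTCF had 3 WT-only sites (4.62% of all), NANOG 8 WT-only and 7 DKO-only (9.45% and 24.7%), H3K27ac 6 and 8 (24.8% and 18.4%), and Brd3 23 WT-only (71.4%). The causes were not tested.

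The replicate block, which the labels give only as shared numbers, gave 17 CTCF sites higher and 28 lower (22.9% and 25.7% of all). It gave 1 SOX2 site lower (15.6% of all) and 1 p300 site higher (4.16%).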
